A study of Mus musculus with 10 samples.

Results

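The 37 transcripts of the mouse mitochondrial genome were followed in platelets of P7 mice, where P7 is taken to mean postnatal day 7, and of adults. They were all rows, out of 53819 gene symbols, whose symbol begins with mt-, and they comprise 2 rRNA, 13 mRNA and 22 tRNA rows. The 10 RNA-seq libraries carry the letters A, B, C, E and I for P7 mice, while the adults have A, B, C, G and H. Per the labels, platelet RNA was isolated with Trizol, 1 ng of total RNA was amplified with SMARTer Ultra Low Input v4 chemistry, and Nextera XT libraries from 150 pg of cDNA were read as single ends of 75 nt on a NextSeq 550. The labelled molecule is polyA RNA, and the part of this in the rRNA, mRNA and tRNA levels below was not tested. Age was the only labelled difference between the groups. Neither sex, strain and adult age nor the number of animals per library is stated, so p-values reflect the spread between these libraries, part of which may be technical.

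Mitochondrial DNA is transcribed from both strands into long precursors. Transfer RNAs lie between most of the rRNA and mRNA genes, and their excision releases the other RNAs. The mRNAs encode core subunits of respiratory complexes I, III and IV and of the ATP synthase, and the rRNAs and tRNAs serve the mitochondrial ribosome. Platelets have no nucleus but keep mitochondria, so mitochondrial DNA is the genome they carry, while their nuclear-encoded RNA was made in megakaryocytes.

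The libraries held 19431863 to 25029931 counts each. The defining platelet genes Pf4, Itga2b and Gp9 were abundant at both ages, with Pf4 between 9760.4 and 14583 CPM at P7 against 9091 to 12737 CPM in adults. Here CPM is read counts per 1e6 counts of a library after TMM scaling. The marker Elane (neutrophils) had 0 counts in 4 of 5 P7 and 5 of 5 adult libraries, and Cd3e (T cells) in 3 of 5 P7 and 5 of 5 adult libraries. Csf1r (monocytes) and S100a8 (neutrophils) were below 2 CPM in all 10 libraries. Other genes of such lists were abundant, with the myeloid gene Lyz2 at 2239 to 3451 CPM at P7 against 2909 to 6083 CPM in adults, and the globin Hba-a1 at 783 to 2391.5 CPM at P7 against 455 to 1669 CPM in adults.

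Of the 37 rows, 22 had a count in at least 1 library and 15 were at 0 in all 10. The 15 were 6 mRNA and 9 tRNA rows. Of them 11 form 1 unbroken run, mt-Ts1, mt-Td, mt-Co2, mt-Tk, mt-Atp8, mt-Atp6, mt-Co3, mt-Tg, mt-Nd3, mt-Tr and mt-Nd4l, over 3304 bases at chrM:6870-10173 (GRCm38). The other 4 were mt-Tw, mt-Tn, mt-Ty and mt-Th. This run therefore held complex IV subunits 2 and 3, both mitochondrial ATP synthase subunits, and complex I subunits 3 and 4L. The rows on either side, mt-Co1 and mt-Nd4, were well covered in every library. A count of 0 allowed up to 3 counts, or 0.120 CPM in the deepest and 0.154 CPM in the shallowest library, for counting error only. The mRNA genes of the run share a precursor transcript with mt-Co1, and the 0 values are given as listed, with no level and no comparison between ages.

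All mRNA rows at 0 but mt-Atp8 have near-complete annotated copies on nuclear chromosomes. Each stretch of 75 bases, the read length, was looked up letter for letter in the GENCODE vM21 transcripts of all other chromosomes. Such a copy existed for 99.5% of the stretches of mt-Co2 and of mt-Atp6, 99.9% of mt-Co3, 97.8% of mt-Nd3 and 98.7% of mt-Nd4l. For mt-Atp8, which lies between them and has no annotated copy, it was 0%. Sequence outside annotated transcripts was not searched, so an unannotated copy of mt-Atp8 would be missed. On chromosome 1 the copy of mt-Atp6, Gm10925, ends at 24614651, and that of mt-Co2, Gm28661, starts at 24614885. Among rows with counts it was 61.5% for mt-Nd4, 39.8% for mt-Co1, 5.71% for mt-Nd2 and 1.66% for mt-Nd5, and 0% for mt-Rnr1, mt-Rnr2, mt-Nd1, mt-Nd6 and mt-Cytb. Most tRNAs are shorter than a read and were not scored. For mt-Co2, mt-Atp6, mt-Co3, mt-Nd3 and mt-Nd4l, a copy on chromosome 1 aligns at 99.7% identity or above. These copies are annotated as unprocessed pseudogenes. A second copy of mt-Co2, Gm13341 on chromosome 2, aligns at 95.9% identity. The 7 aligned models of chromosome 1 together received 2 to 12 counts in a P7 library and 1 to 12 in an adult one. The handling of reads with several placements is not known here, and their part in the 0 values was not tested.

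These pairs show how little separates a member from its nuclear copy, with capitals marking the bases that differ. The starts of mt-Co2 (chrM:7013-7132) and Gm28661 (chr1:24615446-24615565, minus strand) have no differing base. Those of mt-Nd3 (chrM:9459-9578) and Gm28438 (chr1:24613000-24613119, minus strand) have 1. A stretch of mt-Co1 (chrM:6390-6509) also has 1 against Gm29216 (chr1:24616069-24616188, minus strand).
mt-Co2: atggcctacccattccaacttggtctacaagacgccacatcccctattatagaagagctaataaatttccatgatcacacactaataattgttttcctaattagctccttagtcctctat
Gm28661: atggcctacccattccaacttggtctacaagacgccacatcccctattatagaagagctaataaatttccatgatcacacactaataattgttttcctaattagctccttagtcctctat
mt-Nd3: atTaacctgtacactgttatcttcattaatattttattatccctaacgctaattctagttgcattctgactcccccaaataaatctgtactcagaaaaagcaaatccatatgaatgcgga
Gm28438: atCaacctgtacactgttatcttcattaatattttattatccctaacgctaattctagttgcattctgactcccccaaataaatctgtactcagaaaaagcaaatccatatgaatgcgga
mt-Co1, 3′ stretch: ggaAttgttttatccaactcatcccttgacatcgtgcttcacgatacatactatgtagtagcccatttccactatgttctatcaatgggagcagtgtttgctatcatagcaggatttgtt
Gm29216: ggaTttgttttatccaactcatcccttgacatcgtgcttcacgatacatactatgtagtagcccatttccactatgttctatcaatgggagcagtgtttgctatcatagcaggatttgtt

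The start of mt-Co1 (chrM:5328-5447) is shown against Gm13340, a second copy (chr2:22589528-22589647, minus strand), because mt-Co1, unlike mt-Co2 and mt-Nd3, had counts. It has 3 differing bases in 120, and every stretch of 75 within these 120 covers at least 1 of them. Over all 1545 bases this pair differed at 37.
mt-Co1, 5′ stretch: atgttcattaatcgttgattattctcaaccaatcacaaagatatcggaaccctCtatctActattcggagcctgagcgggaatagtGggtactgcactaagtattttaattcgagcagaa
Gm13340: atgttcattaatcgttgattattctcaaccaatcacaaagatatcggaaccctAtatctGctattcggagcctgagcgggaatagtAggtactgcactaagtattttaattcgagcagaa

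**Figure D1:**
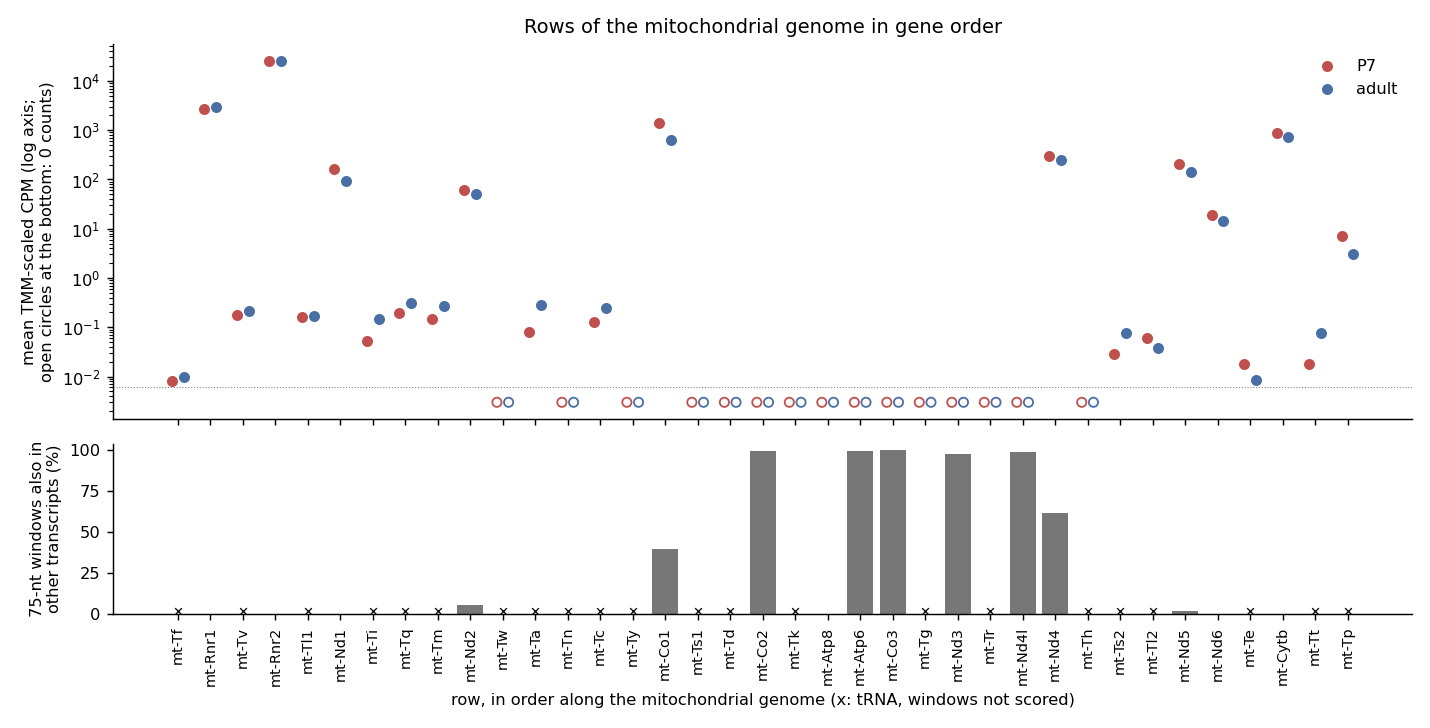
The 37 rows run left to right in their order along the mitochondrial genome. The upper panel gives mean TMM-scaled CPM on a log axis (P7 red, adult blue, n = 5 each; open circles at the bottom are 0 in all libraries), and the lower panel the percentage of 75-nt stretches also present in transcripts of other chromosomes. The unbroken run of 0 rows covers the 5 mRNAs with 97.8% or more of their stretches shared, and also mt-Atp8, with 0%. Only annotated transcripts were searched.

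All mitochondrial rows together took shares of the libraries that overlapped between the ages. The share of total counts was 2.61%, 3.73%, 1.75%, 3.15% and 4.56% in P7 libraries A, B, C, E and I, against 2.52%, 2.85%, 2.21%, 3.37% and 3.65% in adult libraries A, B, C, G and H. The groups overlapped, with the lowest and the highest library both from P7. The means were 3.16% ± 1.07 at P7 against 2.92% ± 0.59 in adults (SD, n = 5 each). Their difference, 0.241 percentage points, was smaller than the spread within either group.

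The 2 rRNAs supplied most of these counts and did not separate the ages. Their share was 2.85% ± 0.99 at P7 against 2.73% ± 0.56 in adults (SD, n = 5 each). The mt-Rnr2 row, the 16S rRNA of the large mitochondrial ribosomal subunit (chrM:1094-2675), ranked between 3 and 7 among all rows in P7 libraries and 4 to 8 in adult libraries. It stood at 20649, 30614, 13863, 22954 and 38543 CPM in P7 libraries A, B, C, E and I, against 22148, 23033, 18443, 28165 and 34457 CPM in adult libraries A, B, C, G and H. Libraries I at P7 and H in adults were the highest of their groups. Its log2 fold change, P7 over adult, was 0.00 ± 0.24 (SE; adjusted p = 0.992, edgeR), and of the other scalings RLE turned its sign, to -0.02.

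The mt-Rnr1 row, the 12S rRNA of the small subunit (chrM:70-1024), averaged 2741 ± 1196 CPM at P7 against 2905 ± 845 CPM in adults (mean and SD, n = 5 each). Its log2 fold change was -0.08 ± 0.29 (SE; adjusted p = 0.860, edgeR). The 2 rRNAs kept a similar proportion at both ages, with 8.73 to 10.9 mt-Rnr2 counts per mt-Rnr1 count at P7 against 7.70 to 9.72 in adults.

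The mRNA share was higher in every P7 library than in any adult library. It was 0.238%, 0.333%, 0.234%, 0.317% and 0.428% in P7 libraries A, B, C, E and I, against 0.178%, 0.187%, 0.137%, 0.224% and 0.206% in adult libraries A, B, C, G and H. The lowest P7 libraries, A and C, were just above the highest adult library, G, and the P7 mean was 1.66 times the adult mean. Without mt-Co1 the share of the other 6 mRNA rows with counts was 0.115% to 0.225% at P7 against 0.0908% to 0.149% in adults, and the groups overlapped. The rRNA part of mitochondrial counts was accordingly 86.6% to 91.1% at P7 and 92.9% to 94.3% in adults, without overlap. The mRNA sums rest on the 7 rows with counts, since 6 mRNA rows were at 0. For mt-Co1 and mt-Nd4 the handling of reads shared with nuclear copies is not known. No p is given for these sums, since the rows were chosen together with earlier results known.

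**Figure D2:**
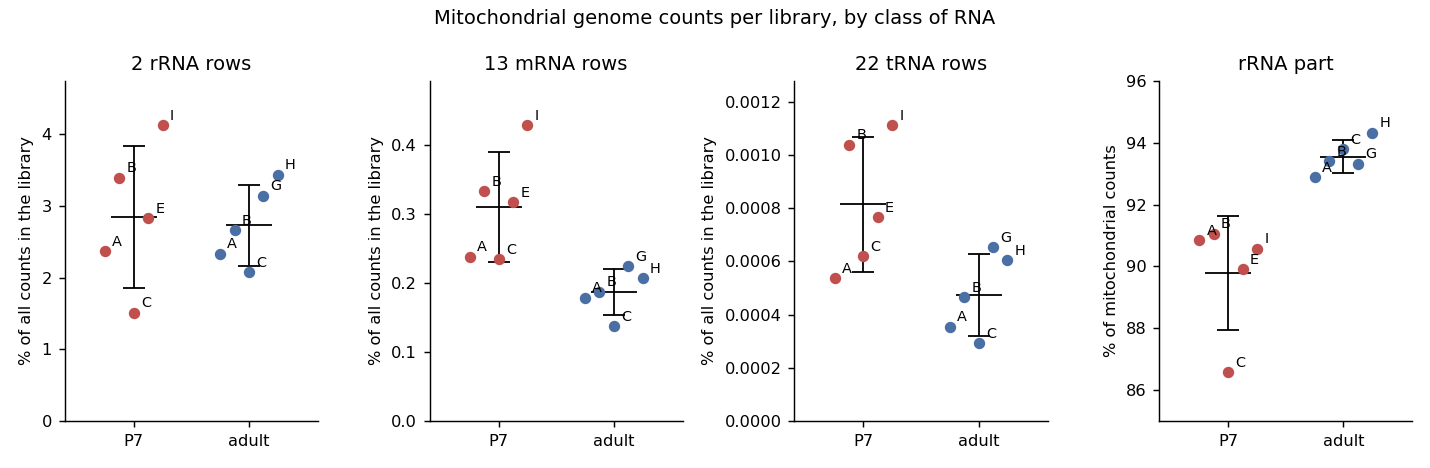
Each point is a library with its letter, and bars show mean ± SD (n = 5 each). The 3 left panels give the share of all counts in percent, where rRNA and tRNA shares overlap between P7 and adult and the mRNA share does not. The right panel, whose axis does not start at 0, gives the rRNA part of mitochondrial counts, at most 91.1% at P7 against at least 92.9% in adults. The mRNA counts come from 7 rows.

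Row by row, 10 of the 37 passed the filter on low counts and were tested among 8198 genes. These were both rRNAs, the 7 mRNAs with counts and mt-Tp. By edgeR, with Benjamini-Hochberg adjustment over all 8198 genes, 3 of the 10 rose at P7, namely mt-Co1, mt-Nd1 and mt-Tp, where 13.8% of all tested genes were called higher. By the same test 0 fell, where 13.9% of all tested genes were called lower, and 0 of the 10 were lower at an unadjusted p under 0.05 by edgeR, DESeq2 or limma-voom. In 2 of the 10, mt-Co1 and mt-Nd1, each P7 library lay above each adult library, which held for 10.1% of tested genes. In 0 of the 10 did each P7 library lie below, which held for 9.76%. The median log2 fold change was 0.41 over the 7 mRNAs and 0.05 over all tested genes.

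Complex IV is represented by mt-Co1 alone (chrM:5328-6872), the catalytic subunit of cytochrome c oxidase. It stood at 1013 CPM, 1483 CPM, 1200.4 CPM, 1326 CPM and 2110.0 CPM in P7 libraries A, B, C, E and I, against 598 CPM, 542 CPM, 454 CPM, 745 CPM and 786 CPM in adult libraries A, B, C, G and H. The lowest P7 library was above the highest adult library. The mean was 1427 ± 419 CPM at P7 against 625 ± 139 CPM in adults (mean and SD, n = 5 each), a ratio of 2.28. The log2 fold change was 1.19 ± 0.20 (SE; adjusted p = 0.000616, edgeR). Among all rows of a library mt-Co1 ranked between 69 and 155 at P7 against 204 to 293 in adults.

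Complex III has 1 mitochondrial subunit, cytochrome b, encoded by mt-Cytb (chrM:14145-15288). It stood at 688 CPM, 998 CPM, 635 CPM, 839 CPM and 1247.5 CPM in P7 libraries A, B, C, E and I, against 770.3 CPM, 756 CPM, 538 CPM, 830.1 CPM and 828 CPM in adult libraries A, B, C, G and H. The groups overlapped, and the log2 fold change was 0.24 ± 0.19 (SE; adjusted p = 0.361, edgeR).

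Complex I is represented by 5 rows, and 1 of them passed the test. This was mt-Nd1 (chrM:2751-3707), a membrane subunit, with 136 CPM, 196 CPM, 118 CPM, 149.9 CPM and 226 CPM in P7 libraries A, B, C, E and I, against 89.2 CPM, 86.9 CPM, 63.1 CPM, 115 CPM and 113 CPM in adult libraries A, B, C, G and H. The groups did not overlap, though P7 library C and adult library G were close. The log2 fold change was 0.82 ± 0.21 (SE; adjusted p = 0.00883, edgeR).

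The other complex I rows did not pass. The mt-Nd5 row (chrM:11742-13565) averaged 207 ± 69.7 CPM at P7 against 139.6 ± 43.8 CPM in adults (mean and SD, n = 5 each), where the log2 fold change was 0.57 ± 0.25 (SE; adjusted p = 0.104, edgeR). The mt-Nd2 row (chrM:3914-4951) averaged 61.7 ± 17.9 CPM at P7 against 51.2 ± 10.6 CPM in adults, and mt-Nd4 (chrM:10167-11544) averaged 293 ± 96.7 CPM at P7 against 251 ± 57.3 CPM in adults. Their log2 fold changes were 0.27 ± 0.21 and 0.22 ± 0.22 (SE). The mt-Nd6 row (chrM:13552-14070), the one mRNA encoded by the other strand, averaged 18.8 ± 6.94 CPM at P7 against 14.1 ± 6.12 CPM in adults, with a log2 fold change of 0.41 ± 0.32 (SE). Its end overlaps that of mt-Nd5, and the labels do not say that counting used strand, so reads of the shared bases and of antisense RNA cannot be told apart from its own.

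**Figure D3:**
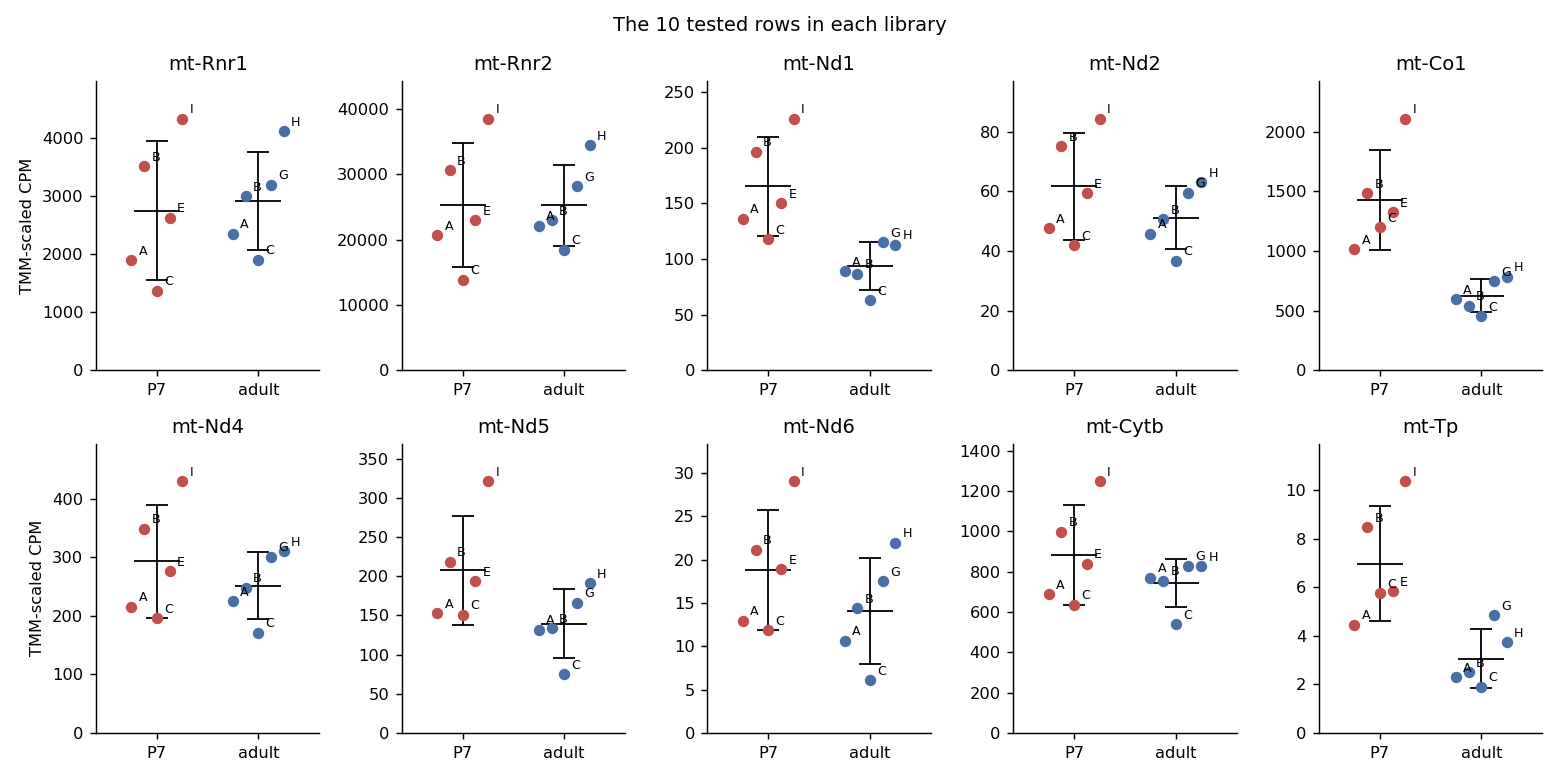
TMM-scaled CPM of the 10 tested rows in each library (letters), with mean ± SD (n = 5 each) and an axis from 0 in every panel. P7 and adult points are apart for mt-Co1 and mt-Nd1 and overlap in the other 8 rows, and P7 library I is the highest of its group in all 10.

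Removing from each library the trend of log2 CPM with GC content moved every one of the 10 fold changes upward. Of the 10 rows, 8 then rose, all but the rRNAs, where 10.3% of all tested genes were called higher. The log2 fold change became 1.45 ± 0.19 for mt-Co1, 0.54 ± 0.17 for mt-Cytb and 0.69 ± 0.20 for mt-Nd2 (SE; adjusted p = 0.000116, 0.0321 and 0.0215, edgeR). The tested rows other than mt-Tp and mt-Co1 have a GC content below 39.7%, the 5th percentile of tested genes, so the trend is read there at or beyond the edge of the data. The count of risen mRNAs thus depends on this choice, while mt-Co1, mt-Nd1 and mt-Tp passed in both fits.

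**Figure D4:**
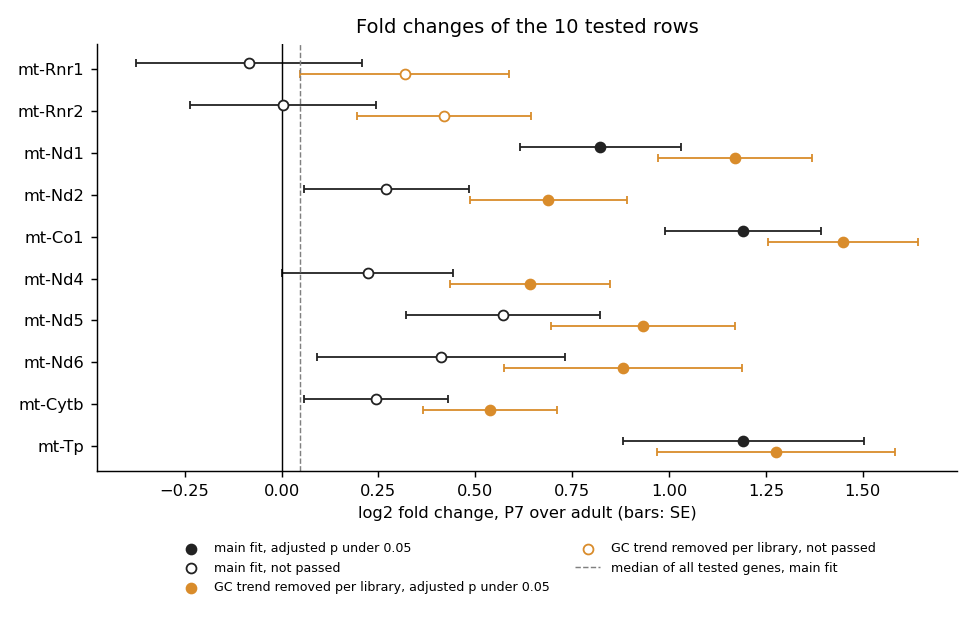
Log2 fold changes, P7 over adult, with SE bars for the 10 tested rows in the fit as reported (black) and after removal of the GC trend per library (orange). Filled points have an adjusted p under 0.05. Black points fill for mt-Nd1, mt-Co1 and mt-Tp, and orange points for all rows but mt-Rnr1 and mt-Rnr2.

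Ratios between rows of the same library need no scaling factor, and several of them did not overlap between the ages. The mt-Co1 part of mRNA counts was 44.7%, 44.4%, 51.0%, 46.3% and 47.4% in P7 libraries A, B, C, E and I, against 32.0%, 29.6%, 33.8%, 33.3% and 34.0% in adult libraries A, B, C, G and H. The mt-Cytb part was 27.0% to 30.4% at P7 and 35.8% to 41.3% in adults. Neither part overlapped between the ages. Parts of a whole are not independent, so a higher part of mt-Co1 by itself lowers those of other rows.

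Per mt-Cytb count there were 1.47 to 1.89 mt-Co1 counts at P7 against 0.717 to 0.949 in adults. Thus mt-Co1 held the most mRNA counts in all P7 libraries, and mt-Cytb in all adult libraries. Within complex I, there were 2.52 to 2.86 mt-Nd1 counts per mt-Nd2 count at P7 against 1.72 to 1.95 in adults, again without overlap. In contrast, mt-Cytb counts per mt-Nd4 count were 2.86 to 3.24 at P7 against 2.67 to 3.43 in adults, and the groups overlapped.

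**Figure D5:**
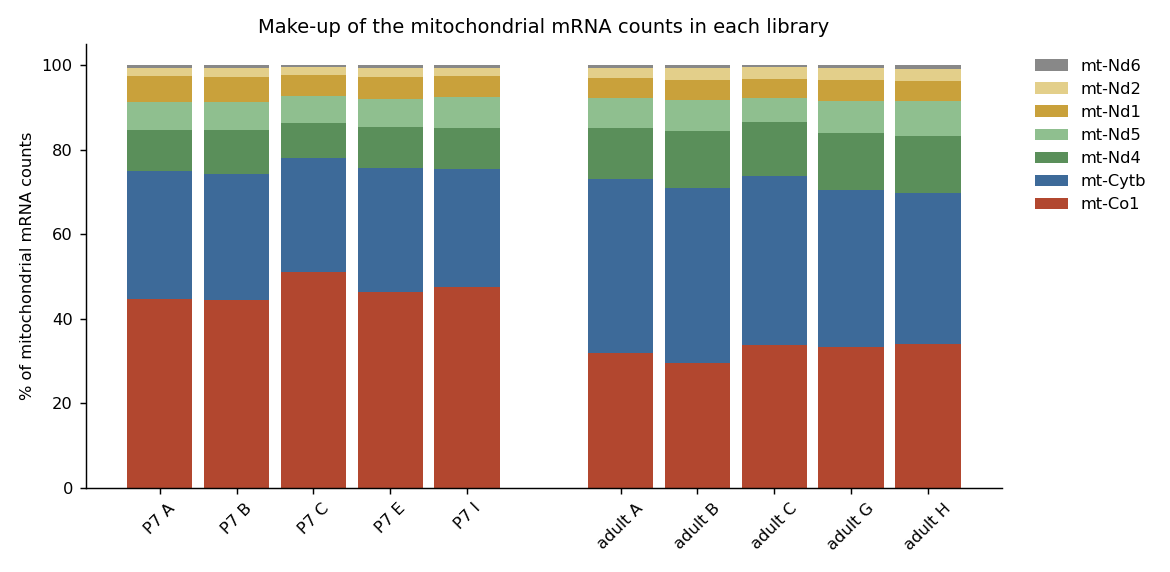
Stacked bars give each mRNA row as a percentage of the mitochondrial mRNA counts of 1 library, P7 libraries on the left and adult libraries on the right. The mt-Co1 segment is 44.4% or more in each P7 library and 34.0% or less in each adult library. The 6 rows at 0 add nothing.

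Levels of different mRNAs are comparable only per length. Per kilobase of annotated length, mt-Co1 averaged 923 ± 271 CPM at P7 against 405 ± 89.9 CPM in adults, and mt-Cytb averaged 771 ± 217 CPM at P7 against 651 ± 105 CPM in adults (mean and SD, n = 5 each). The order at P7 was mt-Co1, mt-Cytb, mt-Nd4, mt-Nd1, mt-Nd5, mt-Nd2 and mt-Nd6, and in adults it was the same but for mt-Cytb before mt-Co1. At P7 the means of mt-Co1 and mt-Cytb were closer than their SD between libraries, as were those of mt-Nd4 and mt-Nd1. In adults this held for mt-Nd1 and mt-Nd5. Within libraries, mt-Co1 was above mt-Cytb and mt-Nd4 above mt-Nd1 in every P7 library, and mt-Nd1 above mt-Nd5 in every adult library. Length was then counted only over stretches of 75 bases with no copy in annotated transcripts of other chromosomes. So counted, mt-Co1 reached 1612 CPM per kilobase at P7 against 706 CPM in adults. For mt-Nd4 the level was 584 CPM at P7 against 500.3 CPM in adults. On that length mt-Co1 and mt-Cytb, at 696 CPM, were close in adults. All counts of a row were divided by that length, which assumes that shared stretches received none. This assumption was not tested. The mt-Rnr2 level per annotated kilobase was 16008 ± 6010 CPM at P7 against 15960 ± 3924 CPM in adults.

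Transfer RNA rows were near the limit of detection except mt-Tp, the proline tRNA, which lies on the minus strand (chrM:15356-15422, GRCm38). Its sequence, in the sense of the tRNA, is shown with the anticodon in capitals, since it is the one tRNA that was tested.
mt-Tp: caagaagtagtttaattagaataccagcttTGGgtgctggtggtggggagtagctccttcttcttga
It had 111, 164, 143, 146 and 227 counts in P7 libraries A, B, C, E and I, against 48, 58, 39, 113 and 65 counts in adult libraries A, B, C, G and H. After scaling, it averaged 6.98 ± 2.39 CPM at P7 against 3.05 ± 1.21 CPM in adults (mean and SD, n = 5 each), and its log2 fold change was 1.19 ± 0.31 (SE; adjusted p = 0.0107, edgeR). The groups touched, since adult library G, at 4.84 CPM, exceeded P7 library A, at 4.47 CPM. The gene has 67 bases, fewer than a full read of 75 nt, and whether these reads come from the tRNA, a precursor or the opposite strand was not tested.

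The 22 tRNA rows together held 127 to 253 counts in P7 libraries against 59 to 152 in adult ones. Without mt-Tp, 12 to 38 counts remained in P7 libraries against 20 to 53 in adult ones, and the groups overlapped. The tRNA rows next in abundance were mt-Tq (glutamine), mt-Tm (methionine), mt-Tv (valine), mt-Tc (cysteine) and mt-Ta (alanine). Mean levels were 0.192 CPM at P7 against 0.306 CPM in adults for mt-Tq, 0.144 CPM at P7 against 0.271 CPM in adults for mt-Tm, and 0.181 CPM at P7 against 0.212 CPM in adults for mt-Tv. They were 0.126 CPM at P7 against 0.246 CPM in adults for mt-Tc, and 0.0801 CPM at P7 against 0.279 CPM in adults for mt-Ta. No tRNA row other than mt-Tp exceeded 11 counts in any library, and 12 rows with counts were too low to be tested. The rows mt-Tf, mt-Tl2, mt-Te and mt-Tt had at most 3 counts in every library.

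Nuclear genes that make, process and translate mitochondrial RNA, together with a list that gauges mitochondrial mass, were read in the same fit. Of 198 genes in these lists 111 were tested, of which 15 rose (13.5%) and 6 fell (5.41%), beside 13.8% and 13.9% of all tested genes. Without P7 library C 7 rose, and without P7 library E 9 did. For the edgeR counts of each list below, 13.8% higher and 13.9% lower of all tested genes are the background.

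In the list for transcription and the nucleoid, 9 of 25 genes were tested and 1 fell, while 0 rose by edgeR or DESeq2 (1 at an unadjusted p under 0.05), with a median log2 fold change of -0.44. Polrmt, the mitochondrial RNA polymerase, had a single count in P7 library E and 0 in the other 9 libraries. Tfam, which packages the DNA and starts transcription, stayed at or below 1.05 CPM at P7 against 0.574 CPM in adults. The gene that fell was Mterf3, a repressor of mitochondrial transcription, with 1.49 to 3.70 CPM at P7 against 3.96 to 8.21 CPM in adults (log2 fold change -1.37 ± 0.30, SE; adjusted p = 0.00402, edgeR).

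In the list for RNA processing and turnover, 16 of 38 genes were tested, 2 rose and 2 fell, with a median log2 fold change of 0.04. Mtpap, which adds the poly(A) tails of mitochondrial mRNAs, fell by 0.95 ± 0.26 on the log2 scale, with 4.74 to 9.66 CPM at P7 against 9.31 to 21.2 CPM in adults. Nsun3, which modifies the mitochondrial methionine tRNA, fell by 0.90 ± 0.25. Hsd17b10, a subunit of mitochondrial RNase P, rose by 0.86 ± 0.26, and Nsun2, an RNA methyltransferase that acts in nucleus and mitochondria, rose by 1.17 ± 0.38 (SE of the log2 fold change).

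Of 79 mitochondrial ribosomal protein genes 52 were tested, 7 rose and 3 fell, with a median log2 fold change of 0.23. The 4 with the smallest p went both ways in both subunits. In the small subunit Mrps11 rose by 1.41 ± 0.23 and Mrps6 fell by 1.54 ± 0.24, and in the large subunit Mrpl54 rose by 1.57 ± 0.37 and Mrpl10 fell by 1.32 ± 0.22 (SE of the log2 fold change). Of 5 tested translation factors 0 passed by edgeR or DESeq2, and 0 had an unadjusted p under 0.05. The most abundant were Mrrf, which recycles ribosomes, at 17.0 CPM at P7 against 16.4 CPM in adults, and Mief1, a fission factor of the outer membrane, at 4.61 CPM at P7 against 4.75 CPM in adults. Of 10 tested tRNA synthetases Gars alone passed, rising by 0.97 ± 0.30, and its glycyl-tRNA synthetase serves cytosol and mitochondria alike.

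Genes used to gauge mitochondrial mass went up where they passed. Of 19 tested, 5 rose and 0 fell by edgeR, and the same numbers by DESeq2. By edgeR 13.8% of all tested genes were called higher and 13.9% lower. At an unadjusted p under 0.05, 0 of the list fell by either tool. The median log2 fold change of the list was 0.41. Its summed level was 564 to 732 CPM at P7 against 448 to 557 CPM in adults. Vdac1, the outer-membrane channel, had 136 to 176 CPM at P7 against 67.5 to 119.6 CPM in adults and rose by 0.64 ± 0.17. Ogdh and Cs, of the citric acid cycle, rose by 1.01 ± 0.22 and 1.70 ± 0.43, and the prohibitin Phb2 rose by 1.42 ± 0.37 (SE of the log2 fold change). Cs and Phb2 were at a few CPM.

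Other blood cells also carry mitochondria, and their markers were read beside these results. In bulk RNA a change in the number of cells of a type and a change in RNA per cell cannot be told apart. Of 20 erythroid markers 14 were tested and 4 rose by edgeR (Fech, Car2, Sptb and Bpgm), beside 13.8% of all tested genes. By DESeq2 5 rose, and 0 fell by edgeR or DESeq2. At an unadjusted p under 0.05, 6 were higher by edgeR and 7 by DESeq2, and 0 were lower by either. Their median log2 fold change was 1.12, against 0.05 over all tested genes. The summed level of the list was 2246 to 4339 CPM at P7 against 1842 to 3085 CPM in adults, with overlap. Alas2, a defining erythroid marker, did not pass, at 0.274 to 10.97 CPM at P7 against 0 to 1.96 CPM in adults.

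Of 14 neutrophil markers 1 was tested and did not pass, and the list summed to 2.49 to 6.44 CPM at P7 against 1.09 to 1.71 CPM in adults. Of 8 B cell markers 3 were tested and 1 rose, with 8.49 to 27.5 CPM in sum at P7 against 5.58 to 6.88 CPM in adults, and Cd79a at 0.282 to 2.68 CPM at P7 against 0.0428 to 0.286 CPM in adults. Of 9 monocyte markers 2 were tested and 1, Lyz2, fell, with 2241 to 3456 CPM in sum at P7 against 2911 to 6085 CPM in adults. Of 10 T and NK cell markers 4 were tested and 1 fell, with 7.56 to 10.3 CPM in sum at P7 against 10.3 to 18.95 CPM in adults. The neutrophil, B cell and T and NK cell sums did not overlap between the ages. The part of other blood cells in the mitochondrial results was not tested. Of 15 platelet markers, all tested, 5 rose and 3 fell by edgeR, beside 13.8% higher and 13.9% lower of all tested genes. Their summed level was 74222 to 96086 CPM at P7 against 74137 to 103460 CPM in adults, with overlap.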

How the data were processed

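RNA-seq of mouse platelets was read from 5 P7 and 5 adult libraries. The deposited values are raw counts per gene symbol, without normalization. The submitters' processing notes name the tools Salmon 1.5.2, Subread 2.0.1, featureCounts, fastp 0.23.1 and STAR 2.7.9a, but not what each did. Genome build, strand setting and treatment of reads with several placements are not stated in any label or header. Reads of overlapping genes and of nuclear copies are therefore uncertain. Coordinates and sequences are those of GENCODE vM21 (GRCm38), where all 37 symbols matched. Transcript copies were aligned with BLAST 2.17.0.

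Shares are counts over the total of a library, which held 19431863 to 25029931 counts. Genes passing filterByExpr were scaled with TMM and tested with edgeR 4.0.16 (quasi-likelihood, robust; limma 3.58.1, R 4.3.3), with age as the only term. P-values were adjusted by Benjamini-Hochberg over 8198 genes, and a gene was called, or said to rise or fall, at an adjusted p under 0.05. Each log2 fold change is P7 over adult and carries its SE. The fit was tested on simulated data. A count of 0 was read as allowing 3 counts. Without molecular identifiers, such limits cover counting error only.

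All rRNA and mRNA rows, the 6 most abundant tRNA rows, and of each nuclear list the called genes with the smallest p, at most 4, or else the 2 most abundant, were named. The members and lists were chosen with earlier results of these data known. Alternatives were other scalings, filters and a stricter threshold, DESeq2 1.42.0, limma-voom, removal of the GC trend, other denominators, and each library left out. Listed symbols with no row were not used here. The level of 1 listed marker is not reported here.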

Additional observations from a re-analysis of the deposited data

Results flagged for a closer look

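In 4 of 70 groups of 5 libraries, 1 library stood farther from the rest than Dixon's ratio of 0.71 allows, where chance gives about 1 in 20. P7 library C did so in 3 related measures. Its rRNA part of mitochondrial counts was 86.6%, against 89.9% in the next P7 library. Its mRNA part was 13.4%, against 10.1% in the next. It had 0.0866 mt-Co1 counts per mt-Rnr2 count, against 0.0578 in the next P7 library. In adults, mt-Cytb was at 538 CPM in library C, against 756 CPM in the next lowest library.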

How the results depend on the processing

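The rows mt-Co1, mt-Nd1 and mt-Tp were called higher, and 0 rows lower, in each of 21 other fits, with 2 exceptions. At 10 CPM as the filter mt-Tp was not tested, leaving 2, and with the GC trend removed 8 rows were called higher. At an adjusted p under 0.01, 2 rows were called higher. Without single libraries the log2 fold change ran from 1.00 to 1.28 for mt-Co1, from 0.68 to 0.92 for mt-Nd1 and from 1.00 to 1.39 for mt-Tp. The rRNA rows, never called, changed sign. For mt-Rnr2 the log2 fold change was -0.016 with RLE and with DESeq2, -0.013 with no filter, -0.051 with limma-voom, -0.065 with the replicate block, and -0.20 to 0.16 without single libraries. For mt-Rnr1 it was 0.32 with the GC trend removed and -0.32 to 0.085 without single libraries. The cause was not tested.

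Libraries of both ages with the same letter (A, B and C) did not deviate together (correlations -0.04, 0.06 and 0.01). With the letter as a replicate block, 3 rows were called higher and 0 lower, as in the same 6 libraries without it. Without the 20 most abundant genes, mt-Rnr2 among them, totals were smaller, and the P7 minus adult difference in share was 0.207 percentage points for mRNA and 0.000568 for tRNA, against 0.123 and 0.000341. With mt-Co1 left out, chosen after seeing the data, the mRNA difference was 0.0394. Of the nuclear list genes, 7 to 15 were called higher without single libraries (15 with all), and 10 were called lower by DESeq2, against 6. The filter on low counts left 27 of 37 rows untested, and 15 of these were at 0 in all libraries. Why rows had few or 0 counts was not tested.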
